A study of Mus musculus with 86 samples.

Results

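Tbc1d9b, Fyco1 and Hhat are 3 of the 53664 mouse genes in the transcript tables of this series. They were chosen by the size of the fall of their neurite enrichment in CAD cells that had lost TDP-43, the RNA-binding protein encoded by Tardbp, so their values in knockout and wild-type CAD cells are given as a description, with no test. The N2A cells and a second CAD experiment were not used in that choice, and there the genes were tested. Neurite enrichment is expressed as a localization ratio (LR), on the log2 scale, of the relative abundance of an RNA in neurites to that in the soma. An RNA with a positive LR is enriched in neurites relative to the other RNAs.

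The 36 libraries fell into 12 groups of 3 samples, in 3 experiments of 4 groups. CAD is a mouse catecholaminergic neuronal line and N2A a mouse neuroblastoma line. In both, a TetOff TDP-43 genotype had been made in which an HA-tagged transgene under a doxycycline-off promoter was the last functional copy of TDP-43, the endogenous alleles having been inactivated with CRISPR in lines grown from single cells. Such cells without doxycycline are called wild type here, although they carry the transgene, and cells that received doxycycline for 48 h are called knockout, so that doxycycline and the loss of TDP-43 cannot be told apart within a line. The labels give a dose of 2 µg/mL, and the study's methods give a lower one. In the second CAD experiment the cells expressed either wild-type or Q331K TDP-43, an ALS-associated mutant, from a single-copy doxycycline-inducible transgene, labelled as overexpression. By the study's methods both of those groups received doxycycline, and their endogenous alleles had not been inactivated, so the comparison is between 2 transgenes and not between the presence and absence of TDP-43. The paper reports that inducing the transgene lowered endogenous TDP-43 and left the total close to that of uninduced cells. By its account most of the protein came from the transgene. Cells were differentiated without serum and grew neurites through porous membranes, and scraping the top of the membrane separated the soma from the neurites. The labels do not say whether the 3 samples of a group came from separate cultures, so the p-values measure the spread between these samples, which may be technical.

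The genes act at different points of membrane traffic and of lipid modification. TBC1D9B belongs to the TBC domain proteins, which switch off Rab GTPases by speeding the hydrolysis of their GTP, and Rab GTPases mark the identity of vesicles and endosomes. FYCO1, a FYVE and coiled-coil protein, binds Rab7 and LC3 on late endosomes and autophagosomes and joins these vesicles to kinesin, which carries them toward the plus ends of microtubules. In an axon that direction leads away from the cell body. HHAT is an acyltransferase of the MBOAT family that sits in the membranes of the endoplasmic reticulum and attaches palmitate to Hedgehog ligands such as Sonic hedgehog, a step these signals need for full activity. TDP-43 binds GU-rich RNA, often in 3′ UTRs and introns.

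GU-rich sequence of the kind that TDP-43 is known to bind was present in an annotated 3′ UTR of each gene. The sequence was searched on the transcribed strand for GTGTG as 1 of 3 motifs, written as DNA and called 5mers here. TGTGT was searched as a second, and a run of alternating T and G counts for both where they overlap. The other motif was GTATG, which can overlap TGTGT by its first bases. In the sequences below, taken from the GENCODE transcripts of GRCm38, capitals mark these 5mers, and the 2 windows of 30 bases that held the most bases of 5mers are shown for each gene.
Tbc1d9b chr11:50172058-50172087, plus strand: ggctttcagtcTGTGTATGctttcttccca
Tbc1d9b chr11:50172025-50172054, plus strand: gaaaaagcacacTGTGTGcagtgcttttcc
Fyco1 chr9:123790722-123790751, minus strand: atttggcccTGTGTaaGTGTGcctttcata
Fyco1 chr9:123789800-123789829, minus strand: gagccttttgaTGTGTGTttaatctcactc
Hhat chr1:192513372-192513401, minus strand: gcttagGTGTGgcagaTGTGTGTtttgata
Hhat chr1:192513854-192513883, minus strand: cTGTGTATGgctgctgggccagctcagcct

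These windows lie in the last exon of the transcript with the longest 3′ UTR of each gene. The matches are a description of the sequence rather than evidence of binding. The longest 3′ UTRs held 6 of the 5mers in Tbc1d9b (1378 nt), 13 in Fyco1 (3174 nt) and 6 in Hhat (1056 nt). Per kilobase this came to 4.35, 4.10 and 5.68, beside a median of 4.21 over the longest 3′ UTRs of 21004 genes, of which 80.6% held at least 1 of the 5mers. GTGTG was found in 65.1%, TGTGT in 72.5% and GTATG in 50.5% of these UTRs. The density lay above that of 51.6%, 48.6% and 65.2% of genes, near the middle of all genes.

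In Tbc1d9b (chr11:50131396-50172785, plus strand, ENSMUSG00000036644), the 5mers were spread unevenly between the coding transcripts. Tbc1d9b-201, the more abundant, ended in a 3′ UTR of 623 nt that held 0 of the 5mers. All 6 lay between positions 630 and 1058 of the longer UTR of Tbc1d9b-202, within the last 755 nt that the shorter transcript lacks. Tbc1d9b-202 also holds an additional exon of 51 nt (chr11:50164162-50164212). Fyco1 lies at chr9:123789500-123851899 on the minus strand (ENSMUSG00000025241), and its coding transcripts Fyco1-201 and Fyco1-202 share nearly all of their 3′ UTR. Hhat spans chr1:192496711-192771223 on the minus strand (ENSMUSG00000037375) and has a single main coding transcript, Hhat-201, with 12 exons.

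**Figure D1:**
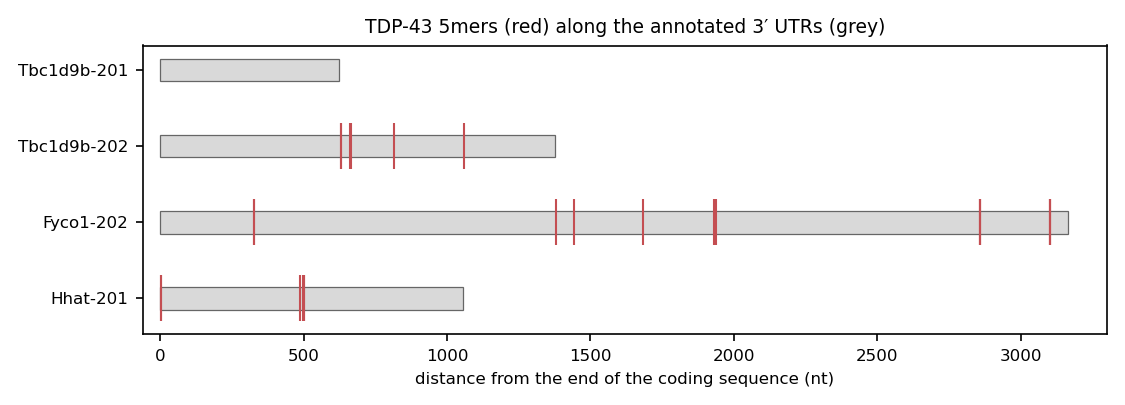
Map of the TDP-43 5mers (red ticks) along the annotated 3′ UTRs (grey bars) of 4 coding transcripts, by distance from the end of the coding sequence in nucleotides. Tbc1d9b-201 held 0 of the 5mers, Tbc1d9b-202 held 6, Fyco1-202 held 13 and Hhat-201 held 6, and overlapping matches can merge into 1 tick.

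Libraries of the CAD and N2A knockout experiments held 22726534 to 32895542 estimated counts, and those of the transgene experiment 9783050 to 15870647. Tardbp was lower in knockout cells, by 2.52 on the log2 scale in CAD soma (SE 0.0769, adjusted p = 3.32e-12 by edgeR's quasi-likelihood test) and by 1.78 in N2A soma (SE 0.0783, adjusted p = 2.58e-09, edgeR), and did not differ between the transgenes in soma (-0.02, 95% interval -0.21 to 0.17). Of 7 neuronal markers, 6 had a mean of at least 1 TPM in each fraction of each experiment, the exception being Dcx. Marker means were taken over control and changed libraries together. Of 4 catecholaminergic markers, Th and Dbh reached 1 TPM and Slc18a2 stayed under 0.1 TPM in the soma of wild-type and knockout CAD cells. Their summed level was 12.7 to 23.5 TPM in wild-type and 36.8 to 55.4 TPM in knockout CAD soma, and the part of this shift in the results was not tested. Of 7 glial and 5 fibroblast markers, at most 3 of each list reached a mean of 1 TPM, with summed levels of at most 14.9 and 27.9 TPM. Replicate 3 of the N2A knockout neurites stood apart from the other 2 for Tbc1d9b (127 CPM) and Fyco1 (38.6 CPM), and results that rest on it are given with and without it.

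Tbc1d9b was one of the most neurite-enriched RNAs of CAD cells, and its neurite level was 4.05-fold lower in knockout cells while its soma level was nearly the same. In wild-type CAD neurites it stood at 767, 1005 and 758 CPM (read counts set relative to library size, scaled by edgeR's TMM method), and in knockout neurites at 182, 231 and 211 CPM. In the soma it stood at 75.0, 76.8 and 86.5 CPM in wild-type and at 70.5, 72.7 and 67.5 CPM in knockout cells. The neurite samples thus stood far apart, whereas the soma samples differed little although they did not overlap.

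Its LR in CAD cells was 3.41 (SE 0.118) in wild-type and 1.57 (SE 0.111) in knockout cells, a difference of -1.84 (SE 0.154) or 3.58-fold. This was the largest of the 36 falls that passed the threshold in CAD cells (adjusted p under 0.01, edgeR), which made up 0.208% of the 17343 genes tested and which the choice of the genes had used. The number of falls called was 16 without replicate 2 of the wild-type soma, 17 without replicate 2 of the knockout soma and 145 with DESeq2. Nearly all of the LR difference of Tbc1d9b came from the neurites, where the level differed by -2.02 (SE 0.111), against -0.18 (SE 0.109) in the soma. Even so, 98.4% of genes had a lower LR than Tbc1d9b in knockout cells, beside 99.7% in wild-type cells. In a bulk fraction, fewer cells that carry an RNA and less of that RNA per cell cannot be told apart.

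Fyco1 was also strongly neurite-enriched in wild-type CAD cells and lower in knockout neurites, by 3.48-fold. It stood at 207, 264 and 187 CPM in wild-type and at 52.5, 70.0 and 66.5 CPM in knockout CAD neurites. In the soma it stood at 17.9, 18.4 and 15.9 CPM in wild-type and at 13.2, 10.8 and 9.91 CPM in knockout cells. All 3 knockout samples lay below all 3 wild-type samples in both fractions. The LR was 3.66 (SE 0.140) in wild-type and 2.49 (SE 0.141) in knockout cells, a difference of -1.17 (SE 0.191) or 2.25-fold, the third of the falls in order of size after that of Ppfia3 (-1.21). Unlike Tbc1d9b, Fyco1 was lower in the soma as well (-0.63, SE 0.143), so that its LR differed by less than its neurite level (-1.80, SE 0.128). Its LR in knockout cells was still above that of 99.5% of genes.

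Hhat was only slightly neurite-enriched in wild-type CAD cells, and in knockout cells it was higher in the soma and lower in the neurites. It stood at 5.46, 5.26 and 5.87 CPM in wild-type and at 10.1, 7.08 and 9.20 CPM in knockout CAD soma. In the neurites it stood at 7.64, 7.42 and 7.97 CPM in wild-type and at 5.57, 5.14 and 6.36 CPM in knockout cells. Knockout samples were therefore above the wild-type samples in the soma and below them in the neurites, with no overlap in either. The LR was 0.47 (SE 0.127) in wild-type and -0.63 (SE 0.127) in knockout cells, a difference of -1.10 (SE 0.180) or 2.14-fold, and the larger part of it lay in the soma (0.66, SE 0.123) rather than in the neurites (-0.43, SE 0.131). The LR of Hhat lay above that of 79.3% of genes in wild-type and of 20.5% in knockout cells, on the neurite side in the first and on the soma side in the second. It rested on 129 to 342 counts per CAD library, against 368 to 5954 for Fyco1 and 2227 to 22675 for Tbc1d9b. The next fall in order, after that of Hhat, was that of Bsn (-1.08).

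Samples of the 2 genotypes did not overlap for any of the 3 genes in CAD soma and in CAD neurites, which was also so for 43.9% and 46.6% of all genes tested in these fractions. The direction of these differences was part of how the genes were chosen, and nothing is read from the counts.

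**Figure D2:**
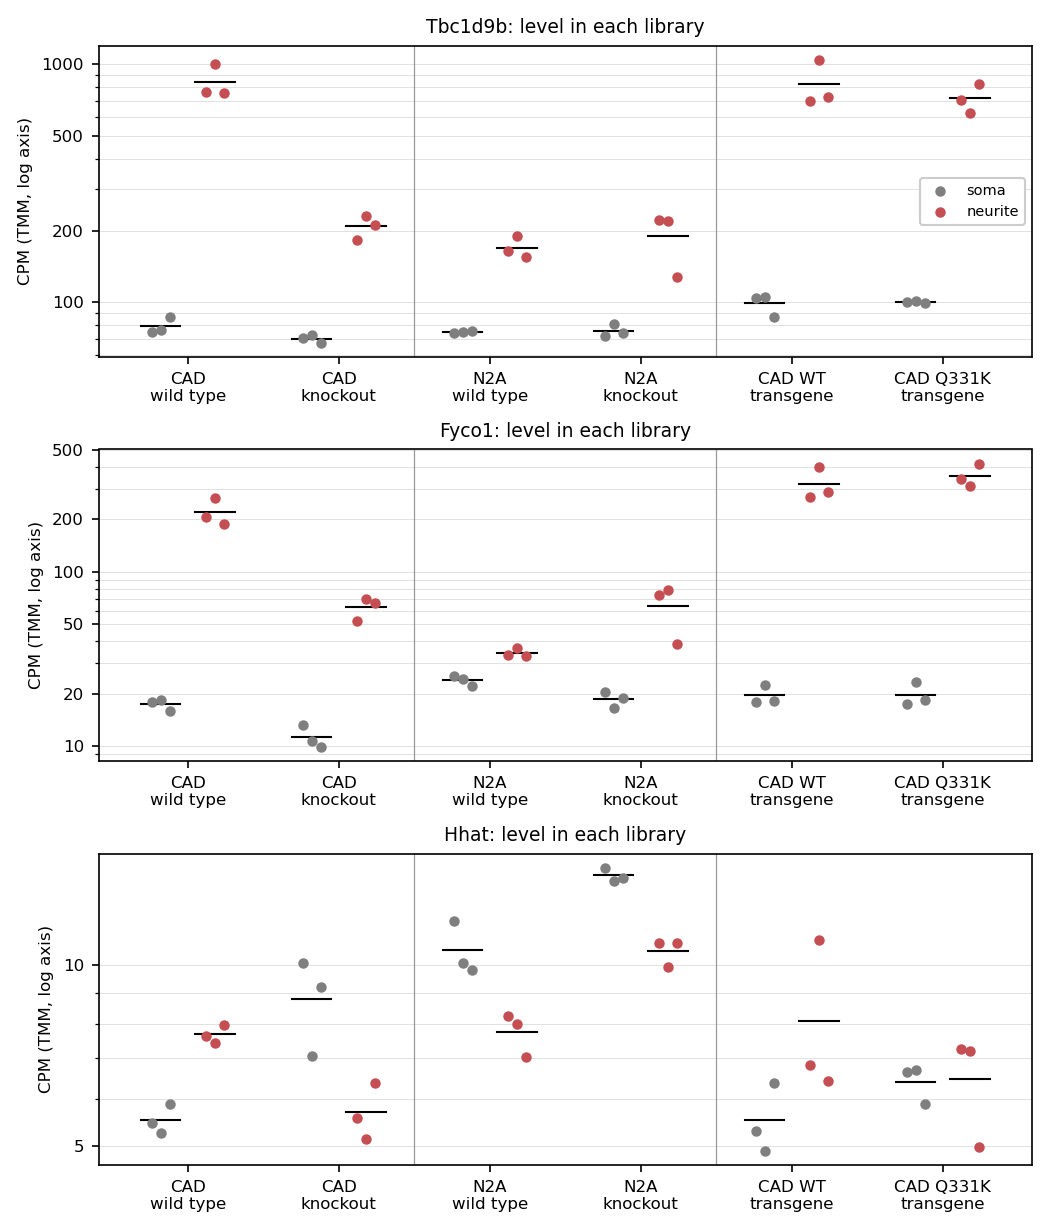
Level of each gene in each of the 36 libraries, in CPM on a log axis, with soma libraries in grey, neurite libraries in red and the group means as black lines. The 3 CAD knockout neurite samples of Tbc1d9b (182 to 231 CPM) sit below the 3 wild-type ones (758 to 1005 CPM), and the N2A knockout neurite samples of Fyco1 (38.6 to 78.7 CPM) sit above the wild-type ones (33.1 to 36.5 CPM).

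The comparison of the same genotypes in N2A cells asked whether the lower LRs were shared by a second line. None of the 3 genes was called for a lower LR in N2A knockout cells. The estimated changes were 0.14 for Tbc1d9b, 1.25 for Fyco1 and 0.03 for Hhat. At the threshold of 0.01, 16 genes (0.0893% of the 17912 tested) had a higher LR in knockout N2A cells, and 0 of the 3 genes was among them or among the 2 genes (0.0112%) called lower. At a threshold of 0.05, 3.13% of genes were called higher, and Fyco1 was 1 of them. An unadjusted p under 0.05 by edgeR was found for 5582 of the 17912 genes. Whether the changes differed between CAD and N2A cells was not tested.

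Tbc1d9b was moderately neurite-enriched in N2A cells of both genotypes. It stood at 165, 190 and 154 CPM in wild-type and at 222, 219 and 127 CPM in knockout N2A neurites. In the soma it stood at 74.1, 75.1 and 75.6 CPM in wild-type and at 72.3, 81.2 and 74.4 CPM in knockout cells. The genotypes overlapped in both fractions. The LR was 1.18 (SE 0.157, adjusted p = 7.61e-06, edgeR) in wild-type and 1.32 (SE 0.157, adjusted p = 5.50e-06, edgeR) in knockout cells. The change was 0.14 (95% interval -0.33 to 0.61, adjusted p = 0.690, edgeR). It ran from 0.0015 to 0.35 when single libraries were left out, the highest without replicate 3 of the knockout neurites (adjusted p = 0.102, edgeR). Without replicate 3 of the knockout neurites, the neurite level of Tbc1d9b was higher in knockout cells by 0.38 (adjusted p = 0.00964, edgeR), whereas with it the difference was 0.16 (adjusted p = 0.533, edgeR).

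Fyco1 was more abundant in knockout than in wild-type N2A neurites. It stood at 33.6, 36.5 and 33.1 CPM in wild-type neurites and at 74.0, 78.7 and 38.6 CPM in knockout neurites. In the soma it stood at 25.2, 24.4 and 22.1 CPM in wild-type and at 20.5, 16.7 and 18.8 CPM in knockout cells. Knockout samples lay above the wild-type samples in neurites and below them in the soma, with replicate 3 of the knockout neurites close to the wild-type samples. The neurite level rose by 0.89 (SE 0.185, adjusted p = 0.00298, edgeR), as did that of 6.48% of genes, while the soma difference of -0.36 (SE 0.192) did not pass the threshold (adjusted p = 0.172, edgeR). The neurite call was lost, at 0.70 to 0.93 and adjusted p-values by edgeR of up to 0.0186, without any 1 of replicates 1, 2 and 3 of the wild-type neurites or replicates 1 and 2 of the knockout neurites. Without replicate 3 of the knockout neurites the rise was 1.15 (adjusted p = 1.59e-06, edgeR) and the soma difference passed too (-0.35, adjusted p = 0.00966, edgeR).

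The LR of Fyco1 was 0.52 (SE 0.189, adjusted p = 0.0216, edgeR) in wild-type and 1.77 (SE 0.191, adjusted p = 2.38e-06, edgeR) in knockout N2A cells. Its rank moved from above 69.5% to above 99.4% of genes. The change of 1.25 (95% interval 0.68 to 1.82) had an adjusted p of 0.0299 by edgeR and so missed the threshold of 0.01, which it passed without replicate 3 of the knockout neurites (1.5, adjusted p = 6.79e-05, edgeR), without replicate 1 of the knockout soma (1.26, adjusted p = 0.00919, edgeR) and with DESeq2 (1.21, adjusted p = 0.000429). Over all left-out libraries the change ran from 1.05 to 1.5, with adjusted p-values by edgeR of up to 0.117, above 0.05 as well. LR changes were broad in N2A cells, and 92.1% of genes had a lower one than Fyco1. Without replicate 3 of the knockout neurites the LR of wild-type cells also passed the threshold (0.55, adjusted p = 5.97e-05, edgeR). The nuclear RNAs Malat1, Neat1, Meg3 and Kcnq1ot1, which mark RNA of the cell body, also had higher LRs in knockout N2A cells, by 1.04, 1.83, 0.98 and 1.12. In CAD cells the same 4 RNAs differed by -0.51, 0.74, 0.76 and 0.05, and the part of this in the LR of Fyco1 was not tested. Their summed level was 217 to 656 TPM in wild-type and 101 to 482 TPM in knockout N2A soma, and 32.1 to 47.4 TPM and 52.1 to 70.1 TPM in the neurites. Some of the 4 were near the floor. Meg3 had a mean under 0.1 TPM in CAD soma and CAD neurites. Only Malat1 reached a mean of 1 TPM in CAD neurites, and only Malat1 and Neat1 did in N2A neurites.

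Hhat rose in both fractions of knockout N2A cells, and its LR was not called as changed. It stood at 11.8, 10.1 and 9.83 CPM in wild-type and at 14.6, 13.8 and 14.0 CPM in knockout soma. In the neurites it stood at 8.24, 7.995 and 7.02 CPM in wild-type and at 10.9, 9.94 and 10.9 CPM in knockout cells. All knockout samples lay above all wild-type samples in both fractions. The rise was 0.41 (SE 0.0988, adjusted p = 0.00593, edgeR) in soma, where 10.9% of genes were called higher, and 0.45 (SE 0.103, adjusted p = 0.00601, edgeR) in neurites. Both calls were close to the threshold, and both were lost with length-scaled counts (soma 0.51, adjusted p = 0.0294, and neurites 0.22, adjusted p = 0.443, edgeR). Upper-quartile scaling (0.31, adjusted p = 0.0376, edgeR) and a minimum of 10 counts in every library (0.36, adjusted p = 0.0127, edgeR) ended the soma call. The soma call was lost without replicate 2 of the wild-type soma (0.47) or of the knockout soma (0.44), with adjusted p-values by edgeR of up to 0.0174. The neurite call was lost, at 0.38 to 0.49 and adjusted p-values by edgeR of up to 0.0384, without any 1 of the wild-type neurites, replicate 2 of the knockout soma or replicates 1 and 3 of the knockout neurites. Hhat was depleted from N2A neurites, with an LR of -0.45 (SE 0.102, adjusted p = 0.00122, edgeR) in wild-type and -0.42 (SE 0.0993, adjusted p = 0.00254, edgeR) in knockout cells. These calls were lost without replicate 1 of the wild-type soma (-0.35, adjusted p = 0.01001, edgeR) or replicate 3 of the wild-type neurites (-0.35, adjusted p = 0.0137, edgeR), and without replicate 2 of the knockout neurites (-0.36, adjusted p = 0.0182, edgeR). The change of 0.03 had a 95% interval of -0.27 to 0.34 (adjusted p = 0.897, edgeR). The soma difference was positive in both lines, while the neurite difference was negative in CAD and positive in N2A cells.

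Of the 3 genes, Tbc1d9b was called higher in neurites than in soma in wild-type N2A cells, as were 32.5% of genes, and Hhat was called lower, as were 26.6%. In knockout N2A cells Tbc1d9b and Fyco1 were called higher, as were 25.3% of genes, and Hhat was called lower, as were 13.1%. Samples of the genotypes did not overlap for Fyco1 and Hhat in both fractions, where 42.1% of all genes in soma and 37.5% in neurites did not overlap.

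A neurite level is relative to the RNAs of its own library, and the LRs depend on how that scale is set. With TMM the median LR over all genes was between -0.03 and 0.02 in every kind of cell. With length-scaled counts, also scaled by TMM, it was -0.02 in wild-type and 0.01 in knockout CAD cells, and -0.04 and -0.02 in N2A cells. The log2(TPM + 0.5) scale corrects for transcript length but applies no TMM factor. On it the median was -1.30 in wild-type and -0.97 in knockout CAD cells, and -1.12 and -0.84 in N2A cells. Relative to the medians of the TPM scale, the LR of Tbc1d9b was 2.43 in wild-type and 0.77 in knockout CAD cells. That of Fyco1 was 2.71 and 1.66. In wild-type N2A cells the corresponding values were 0.17 for Tbc1d9b and 0.005 for Fyco1, close to the median gene on this scale. With length-scaled counts they were 0.72 and 0.40. On the TPM scale the changes kept their direction relative to the median, with 2 exceptions. In CAD cells they were -1.63 for Tbc1d9b, -1.02 for Fyco1 and -0.86 for Hhat, and in N2A cells 1.07 for Fyco1. The exceptions were Hhat in N2A cells (-0.21) and Fyco1 between the transgenes (-0.026).

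**Figure D3:**
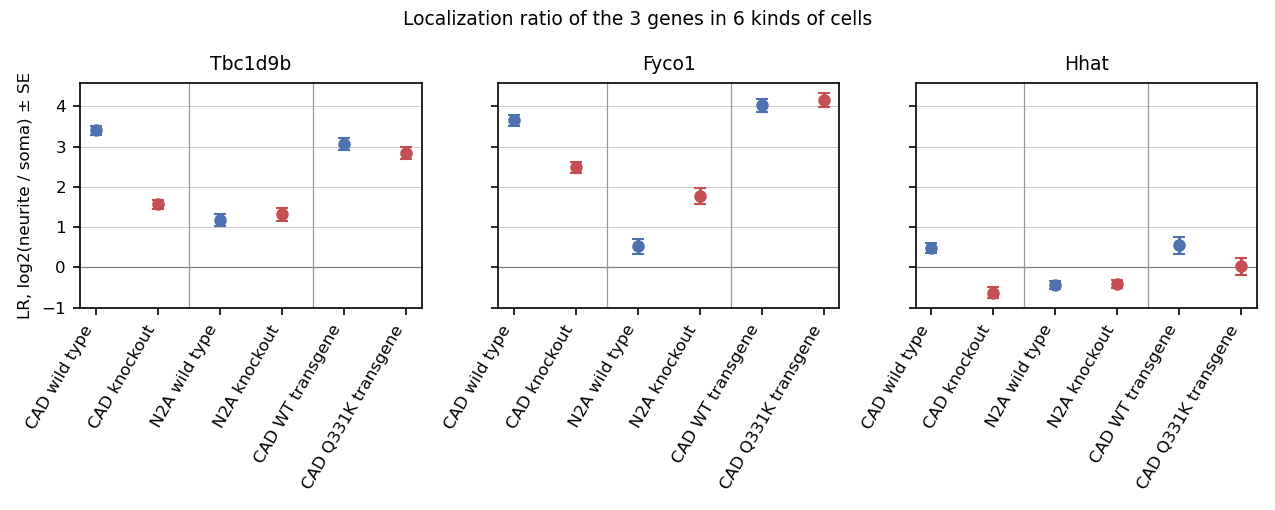
LR of each gene (log2 of neurite over soma level, TMM scale) with its standard error in 6 kinds of cells, 3 soma and 3 neurite libraries each, with control cells in blue and changed cells in red. Tbc1d9b and Fyco1 reach 2.85 to 4.16 in wild-type CAD and in both transgene lines, and 0.52 to 2.49 in knockout CAD and all N2A cells, while Hhat stays between -0.63 and 0.54.

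The transgene experiment gave a separate view of the genes in CAD cells. Both Tbc1d9b and Fyco1 were strongly neurite-enriched again, and the Q331K transgene did not move any of the 3 genes past the threshold. Neurite levels of Tbc1d9b were 701, 1048 and 732 CPM with the wild-type and 707, 625 and 831 CPM with the Q331K transgene. Its soma levels were 105, 105 and 87.1 CPM and 100.1, 101 and 99.0 CPM. The 2 sets of samples overlapped in both fractions. The LR of Tbc1d9b was 3.06 (SE 0.145, adjusted p = 1.34e-10, edgeR) and 2.85 (SE 0.144, adjusted p = 2.74e-10, edgeR), and its change was -0.22 (95% interval -0.62 to 0.19), or -0.018 without replicate 2 of the wild-type neurites.

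For Fyco1 the neurite levels were 269, 401 and 286 CPM with the wild-type and 341, 309 and 418 CPM with the Q331K transgene. Soma levels were 17.9, 22.6 and 18.3 CPM and 17.6, 23.3 and 18.5 CPM. The samples overlapped in both fractions. The LR was 4.03 (SE 0.167, adjusted p = 3.10e-11, edgeR) and 4.16 (SE 0.169, adjusted p = 1.92e-11, edgeR), above that of 99.8% of genes in each, with a change of 0.13 (95% interval -0.33 to 0.60).

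Hhat had only 57 to 134 counts per library in the transgene experiment. Its neurite levels were 6.82, 11.04 and 6.41 CPM with the wild-type and 7.26, 7.20 and 4.97 CPM with the Q331K transgene. The soma levels were 5.30, 4.91 and 6.37 CPM and 6.64, 6.70 and 5.88 CPM. The samples overlapped, and replicate 2 of the wild-type neurites was the highest. The LR was 0.54 (SE 0.215, adjusted p = 0.0544, edgeR) with the wild-type and 0.02 (SE 0.219, adjusted p = 0.953, edgeR) with the Q331K transgene. The change was -0.52, with a 95% interval of -1.17 to 0.13 that includes 0. Without replicate 2 of the wild-type neurites the change was -0.24 and the LR with the wild-type transgene 0.26, and over all left-out libraries they ran from -0.69 to -0.24 and from 0.26 to 0.70.

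Adjusted p-values of all 3 LR changes were 0.999 (edgeR). In this experiment the test called 0% of the 13940 genes tested, also by DESeq2, and 605 genes had an unadjusted p under 0.05. The soma and neurite levels likewise gave 0% of genes called, with 995 and 1372 genes at an unadjusted p under 0.05 by edgeR. Samples that did not overlap between the transgenes were found for 14.1% of genes in soma and 13.8% in neurites, and for 0 of the 3 genes. Against this, Tbc1d9b and Fyco1 were called higher in neurites than in soma with both transgenes, as were 14.9% of genes with the wild-type and 16.7% with the Q331K transgene.

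**Figure D4:**
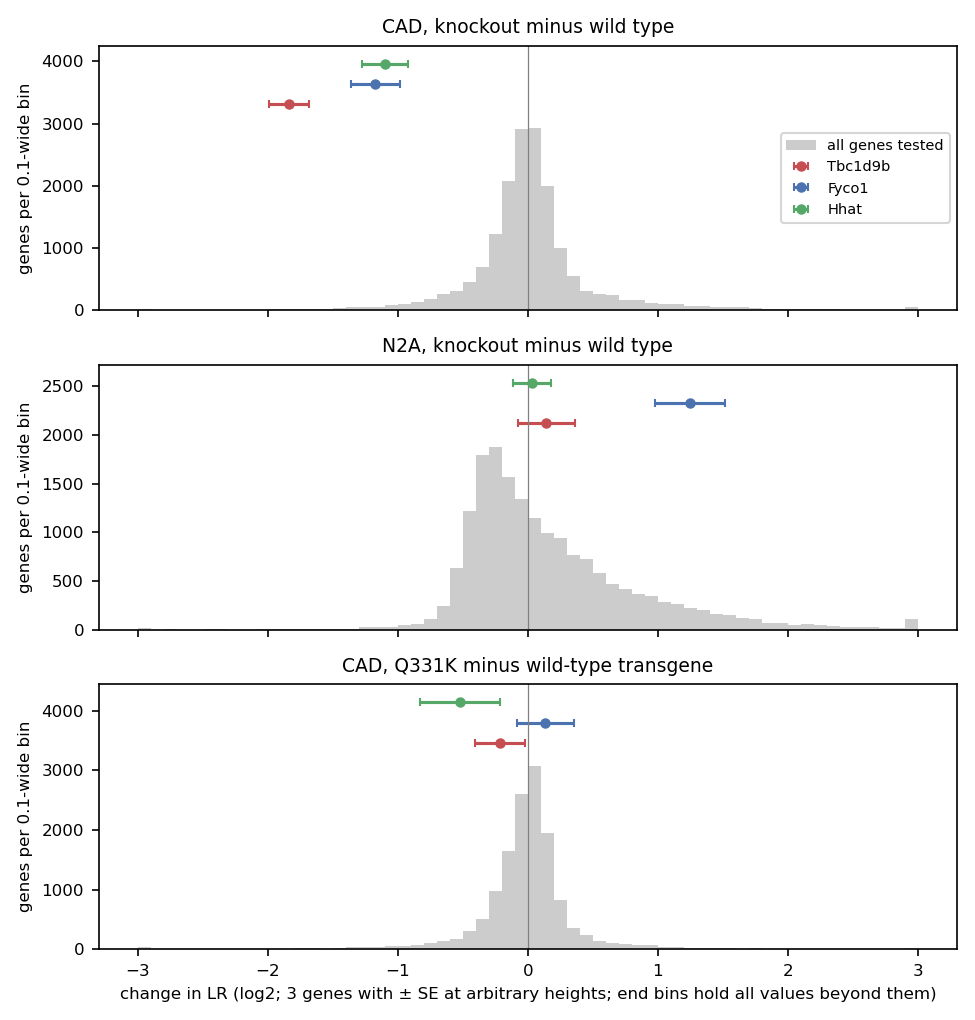
Change in LR of the 3 genes (points with standard errors, at arbitrary heights) over the changes of all genes tested (grey, genes per bin of width 0.1) in the 3 experiments. The 3 genes lie at -1.84 to -1.10 in CAD cells, where they were chosen, at 0.03 to 1.25 in N2A cells and at -0.52 to 0.13 for the Q331K against the wild-type transgene.

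Placed in 1 order over the 12 groups, with the TMM scale set separately in each experiment, Tbc1d9b formed 3 steps. The highest were the neurites of wild-type CAD cells (843 ± 140 CPM, SD, n = 3) and of the wild-type and Q331K transgene cells (827 ± 192 and 721 ± 104 CPM), which did not differ beyond their spread. Next were the neurites of knockout CAD (208 ± 24.8 CPM), knockout N2A (190 ± 53.8 CPM) and wild-type N2A cells (170 ± 18.1 CPM), which again did not. All 6 soma groups lay lower, at means of 70.2 to 100.1 CPM. Fyco1 had the same 3 neurites at the top, at means of 219 to 356 CPM, and its soma groups at the bottom, at 11.3 to 23.9 CPM. In the middle, the neurites of knockout N2A (63.8 ± 21.9 CPM) and knockout CAD cells (63.0 ± 9.26 CPM) did not differ beyond their spread, and those of wild-type N2A cells were lower (34.4 ± 1.84 CPM).

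Hhat followed another order, led by the soma of knockout N2A cells (14.1 ± 0.379 CPM), then the soma of wild-type N2A cells (10.6 ± 1.10 CPM) and the neurites of knockout N2A cells (10.6 ± 0.556 CPM), which did not differ beyond their spread. The other 9 groups had means of 5.53 to 8.79 CPM, with neighbours within their spread. On the TPM scale, on which genes can be compared, wild-type CAD soma held 35.3 ± 6.56 TPM of Tbc1d9b, 4.13 ± 0.628 TPM of Fyco1 and 5.81 ± 0.897 TPM of Hhat (SD, n = 3). Of the Hhat sum, 35.4% ± 10.5 fell on Hhat-207, a noncoding transcript of 408 nt, from 19, 6 and 10 estimated counts. The coding Hhat-201 stood at 2.17 ± 0.703 TPM there, and Fyco1-202 at 2.87 ± 0.404 TPM.

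Over the 12 group means of log2 CPM, Fyco1 was the gene most like Tbc1d9b among 13231 genes tested in all experiments (Pearson r = 0.980), followed by Mtss1l (0.976) and Cdk15 (0.976). The genes most like Fyco1 after Tbc1d9b were Pcnx4 (0.975) and Cdk15 (0.960). Those most like Hhat were Tub (0.924), Psd (0.887) and Kalrn (0.881), and the r of Hhat was -0.19 with Tbc1d9b and -0.13 with Fyco1. The 12 points share cell lines, fractions, libraries and depth between the genes, and these values are a description. They include the wild-type and knockout CAD groups on which the members were chosen, so the r values are not independent of that choice. Cdk15, a kinase of the cyclin-dependent family, had an LR change of -1.22 in CAD, 0.32 in N2A and 0.33 in the transgene experiment. For Tub, which encodes the tubby protein, the changes were -1.06, -0.06 and 0.03.

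The annotation gives 20 transcripts for the 3 genes, of which 6 had a mean of at least 10 estimated counts per library in each experiment. Salmon divides reads between transcripts that overlap, so their values are estimates. Most estimated counts of Tbc1d9b fell on its 2 coding transcripts, with 1816, 1745 and 2029 estimated counts of Tbc1d9b-201 and 937, 967 and 969 of Tbc1d9b-202 in wild-type CAD soma. On the TPM scale, which corrects for transcript length, Tbc1d9b-201 took 46.0% ± 3.25 and Tbc1d9b-202 20.3% ± 0.487 of the gene's summed TPM in the same samples (SD, n = 3). In CAD cells the shorter Tbc1d9b-201, without 5mers in its 3′ UTR, had an LR of 3.60 in wild-type and 1.76 in knockout cells, a difference of -1.84 (SE 0.187). For Tbc1d9b-202, with the longer UTR, the LR was 3.71 and 1.85, a difference of -1.85 (SE 0.199). The lower LR was seen in both transcripts. On the log2(TPM + 0.5) scale the differences were -1.41 for Tbc1d9b-201 and -1.39 for Tbc1d9b-202.

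In N2A cells the LR changes of Tbc1d9b-201 (-0.12, 95% interval -0.74 to 0.51) and Tbc1d9b-202 (0.10, 95% interval -0.58 to 0.77) did not pass the threshold. Both were called higher in neurites than in soma in each N2A genotype, as were 17.3% of transcripts in wild-type and 8.44% in knockout cells. Tbc1d9b-202 took 41.3% ± 3.23 of the gene's summed TPM in wild-type and 35.9% ± 1.98 in knockout N2A neurites (SD, n = 3), and the samples did not overlap. By a two-sided exact permutation test this difference had p = 0.1, the smallest that 3 against 3 samples can give. In N2A soma (26.9% and 25.0%, exact p = 0.6), and between the transgenes in soma (31.6% and 25.2%, exact p = 0.2) and in neurites (31.2% and 32.1%, exact p = 0.7), samples overlapped.

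Fyco1-202 carried most counts of Fyco1. Its LR was 3.94 in wild-type CAD cells and 2.88 in knockout CAD cells, a difference of -1.06 (SE 0.212). In N2A cells the change was 1.15 (95% interval 0.42 to 1.89, adjusted p = 0.0875, edgeR), and 0.00596 was the adjusted p without replicate 3 of the knockout neurites (1.43, edgeR). Fyco1-201 starts at another first exon. It had 35, 59 and 17 estimated counts in wild-type CAD soma and 169, 208 and 95 in wild-type CAD neurites, against 61, 12 and 64 in knockout soma and 11, 0 and 12 in knockout neurites. Knockout neurites thus lay below all wild-type neurites, while the soma samples overlapped, and the LR was 2.92 in wild-type and -1.88 in knockout CAD cells, a difference of -4.80 (SE 1.32). In N2A cells its change had a wide interval (-1.19, 95% interval -6.84 to 4.45). With the wild-type transgene it had 0, 0 and 0 counts in the soma and 0, 15 and 33 in the neurites.

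Hhat-201, the coding transcript, had an LR of 0.59 in wild-type and -0.39 in knockout CAD cells, a difference of -0.98 (SE 0.329). Hhat-202 is a processed transcript of 2892 nt with 4 exons. Most of its sequence is not in Hhat-201, namely its exons of 2645 nt (chr1:192654960-192657604), 91 nt and 120 nt. The LR of Hhat-202 was 1.91 in wild-type and 0.69 in knockout CAD cells, a difference of -1.22 (SE 0.637). On the log2(TPM + 0.5) scale the differences were -0.47 for Hhat-201 and -0.39 for Hhat-202. Hhat-205, another processed transcript, had an LR of -1.53 in wild-type and -1.59 in knockout CAD cells, a difference of -0.06 (SE 0.510). Its level was higher in knockout CAD cells in both fractions, by 0.82 (SE 0.319) in the soma and 0.76 (SE 0.344) in neurites.

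In the transgene experiment Hhat-202 had 2, 4 and 3 estimated counts in soma and 18, 25 and 11 in neurites with the wild-type transgene, and 2, 5 and 2 in soma and 23, 19 and 15 in neurites with the Q331K transgene. Neurite samples lay above soma samples in both, and the LR was 3.05 (95% interval 1.76 to 4.34, adjusted p = 0.00728, edgeR) and 3.15 (95% interval 1.86 to 4.44, adjusted p = 0.00512, edgeR). Hhat-201 in the same cells had an LR of 0.23 (adjusted p = 0.743, edgeR) and -0.53 (adjusted p = 0.302, edgeR). Transcripts called higher in neurites were 3.67% with the wild-type and 4.64% with the Q331K transgene, and also included Tbc1d9b-201, Tbc1d9b-202 and Fyco1-202. In N2A cells Hhat-202 was not enriched (-0.87, adjusted p = 0.238, edgeR, in wild-type cells). The difference in LR between the transcripts was not tested.

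The coding Hhat-201 was not called as depleted from N2A neurites, whereas the summed gene was, and that difference was not tested. Its LR was 0.10 (adjusted p = 0.507, edgeR) in wild-type and -0.22 (adjusted p = 0.226, edgeR) in knockout N2A cells, and its change was -0.32 (95% interval -0.70 to 0.06, adjusted p = 0.328, edgeR). On the log2(TPM + 0.5) scale the change of Hhat-201 was 0.064. Its neurite level differed by 0.41, without passing the threshold (adjusted p = 0.0901, edgeR). The processed transcript Hhat-205 was too low in transgene cells to be among the 6 transcripts and was named after its values were seen. It had 62, 55 and 43 estimated counts in wild-type N2A soma and 9, 23 and 11 in wild-type N2A neurites, with an LR of -1.61 (adjusted p = 0.00619, edgeR) in wild-type and -1.10 (adjusted p = 0.0621, edgeR) in knockout N2A cells. All 3 wild-type neurite samples lay below the soma samples. The share of all transcripts called lower or separated so is not given here, and nothing is read from this call. Of all genes, 26.6% were called lower in neurites than in soma in wild-type N2A cells.

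In N2A soma the coding Hhat-201 rose by 0.73 (SE 0.121, adjusted p = 0.00490, edgeR), from 6.76, 6.19 and 6.58 to 10.1, 10.9 and 11.4 CPM, with 2.63% of transcripts called higher. None of the 6 transcripts was called for its LR change in N2A cells, where the share called was 0.0283%, or between the transgenes, where it was 0.0144%. Genes that overlap the 3 on either strand had at most 4 counts in any library, except Kcnh1 beside Hhat with up to 197.

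**Figure D5:**
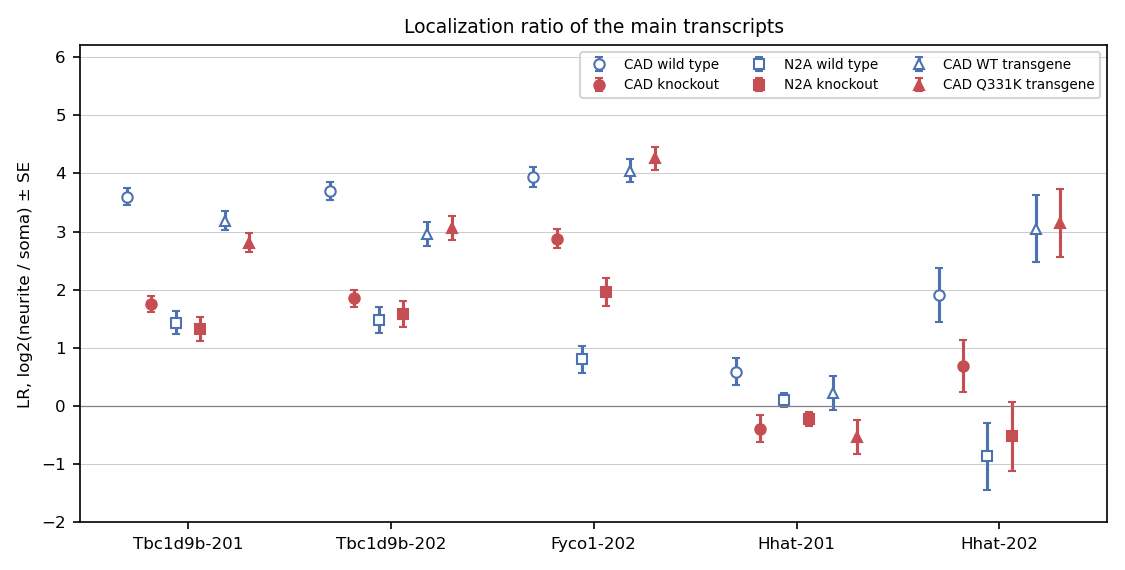
LR of 5 transcripts (log2 of neurite over soma level, with standard errors) in CAD cells (circles), N2A cells (squares) and transgene cells (triangles), open for control and filled for changed cells. Both Tbc1d9b transcripts go from 3.60 and 3.71 in wild-type to 1.76 and 1.85 in knockout CAD cells, and Hhat-202 lies above Hhat-201 in the CAD and transgene cells with wide errors.

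Few genes with related roles were called for a change of LR, as was so for all genes, of which 0.432% were called in either direction in CAD cells, 0.0893% higher and 0.0112% lower in N2A cells and 0% in transgene cells. Of 39 genes with a TBC domain, 36 were tested in CAD cells. Apart from Tbc1d9b, which was chosen for its fall there, 0 of 35 were called for an LR change in CAD cells, and with it 0 of 33 in N2A cells and 0 of 35 between the transgenes. The median change in N2A cells was -0.25, against -0.01 for all genes, with 29 of 33 below 0. Other lists described below shifted too. The N2A median was -0.28 for late endosome and autophagosome transport, with 23 of 34 below 0. It was 0.32 for the MBOAT acyltransferases, with 10 of 11 above 0, and 0.006 for the Hedgehog genes. These shifts were not tested. Tbc1d9, the closest relative of Tbc1d9b, stood at 100.1 ± 4.95 CPM in wild-type CAD soma, with an LR of -0.23 in wild-type and -0.57 in knockout cells, and it was nearly absent from N2A cells (means of at most 0.768 CPM).

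Among 35 genes of late endosome and autophagosome transport (Rab7 and its effectors, the HOPS, BORC and Arl8 machinery, kinesin-1 and LC3 genes), 34 were tested. Apart from Fyco1, which was chosen for its fall, 1 of 33 was called lower in LR in CAD cells and 0 higher. This was Plekhm2, an Arl8 effector that links lysosomes to kinesin-1, with an LR of 2.21 in wild-type and 1.41 in knockout cells. In N2A cells and between the transgenes 0 of 34 were called. The list as a whole was enriched in neurites. In CAD cells 24 of 34 were called higher in neurites in each genotype, beside 23.7% and 24.6% of all genes, and 2 and 3 were called lower, beside 17.7% and 19.0%. In N2A cells 24 and 26 of 34 were called higher, beside 32.5% and 25.3% of all genes. With the wild-type and the Q331K transgene 19 of 34 were called higher, beside 14.9% and 16.7%. In N2A knockout soma 7 of 34 were called higher than in wild-type soma, beside 10.9% of all genes, and 0 lower.

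Of the 11 MBOAT acyltransferases, 0 of the 10 besides Hhat were called for an LR change in CAD cells, and with Hhat 0 of 11 in N2A cells and 0 of 10 between the transgenes. Hhatl, a relative of Hhat, stood at means of at most 2.37 CPM. Of 18 Hedgehog pathway genes, 12 were tested in CAD cells, 10 in N2A cells and 12 between the transgenes, and apart from Hhat in CAD cells 0 were called for an LR change. Hedgehog genes were mostly depleted from neurites, with 7 of 12 called lower in wild-type CAD cells, beside 17.7% of all genes, and 7 of 10 in wild-type N2A cells, beside 26.6%. With the wild-type and the Q331K transgene 5 and 4 of 12 were called lower, beside 12.6% and 14.5% of all genes. Each of the 4 lists holds 1 of the 3 genes.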

How the data were processed

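Soma and neurite RNA of 36 mouse libraries was used, of the 86 samples in the series. The authors trimmed reads with cutadapt, ran salmon, and deposited an estimated count, a TPM and an effective length per transcript. The study's methods name mm10 and Gencode version 17. Gene sums of the estimated counts, rounded to whole numbers, used GENCODE vM21 of GRCm38, with at most 0.1294% of a library's counts on transcripts without a gene there, and TPM values were summed likewise. The members and the gene lists were chosen with earlier results of these data known.

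Groups were taken from the sample labels. The 4 groups of an experiment were fitted together with edgeR 4.0.16 in R 4.3.3 (TMM, filterByExpr by group, glmQLFit, glmQLFTest, Benjamini-Hochberg over all genes or transcripts tested, threshold 0.01), with the LR change as the interaction of fraction and genotype and without a replicate block. Adjusted p-values, folds, SEs and 95% intervals are from this fit. The scripts were tested on simulated data. For each gene the longest 3′ UTR in the annotation was searched for 5mers. Genes named are the 3 members, Tardbp, the relatives Tbc1d9 and Hhatl, the 3 genes most like each member by Pearson's r, list members called for an LR change, and the neighbours of the members in the order of CAD falls. Alternatives were a threshold of 0.05, DESeq2 1.42.0, upper-quartile scaling, other count filters, length-scaled counts, a replicate block, another 3′ UTR and leaving out each library. The log2(TPM + 0.5) scale for genes was added after seeing the data. Depth limits Hhat most, and intervals cover the spread between libraries and counting error only. Other steps used pandas 2.3.3, scipy 1.17.1 and numpy 2.4.6 under python 3.11.15, with figures drawn in matplotlib 3.10.9.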

Additional observations from a re-analysis of the deposited data

Results flagged for a closer look

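The change in LR of Fyco1 had opposite signs in the 2 lines. In N2A cells it was 1.25 and in CAD cells -1.17. Over the 9 pairings of a neurite with a soma library, the LR ran from 0.39 to 0.71 in wild-type and from 0.90 to 2.21 in knockout N2A cells, and from 3.31 to 4.02 in wild-type and from 1.95 to 2.76 in knockout CAD cells, so that every knockout pairing lay above every wild-type pairing in N2A cells and below it in CAD cells. The difference between the lines was not tested, the CAD fall was part of how Fyco1 was chosen, and the N2A change missed the threshold of 0.01 (adjusted p = 0.0299, edgeR). For Tbc1d9b and Hhat the N2A pairings of the genotypes overlapped. The 9 pairings reuse the same libraries, and the share of all genes with pairings so separated was not counted. By library, samples of the genotypes did not overlap for 42.1% of all genes in N2A soma and 37.5% in N2A neurites. In CAD cells the shares were 43.9% and 46.6%.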

How the results depend on the processing

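Genes called for an LR change numbered 75 in CAD, 18 in N2A and 0 in transgene cells. With DESeq2 they were 224 (79 higher, 145 lower) in CAD and 1653 (365 and 1288) in N2A cells, at a threshold of 0.05 they were 166 (70 and 96) and 1515 (560 and 955), with no filter on low counts 280 (117 and 163), 922 (473 and 449) and, in transgene cells, 53 (31 and 22), with at least 10 counts 132 (114 and 18) in N2A cells and with upper-quartile scaling 145 (136 and 9). Leaving out single libraries gave 49 to 91, 4 to 1279 and 0 to 1. The main split was 39 higher and 36 lower in CAD and 16 and 2 in N2A cells. The 1279 (231 and 1048) arose without replicate 1 of the N2A knockout soma and the 4 without replicate 2 of the N2A wild-type soma, and the cause was not tested.

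For Fyco1 in N2A cells, the LR change passed at a threshold of 0.05 (1.25), with DESeq2 (1.21) and with no filter (1.23). Over left-out libraries it ran from 1.05 to 1.5, with adjusted p-values by edgeR of up to 0.117. Its wild-type LR passed at 0.05 (0.52), with no filter (0.59) and with a replicate block (0.53), and ran from 0.50 to 0.58. Hhat calls in N2A cells were lost with at least 10 counts (soma 0.36), upper-quartile scaling (soma 0.31), no filter (LR -0.38 in wild-type, -0.37 in knockout) and length-scaled counts (soma 0.51, neurites 0.22, LR -0.24 and -0.53). The N2A LR change of Hhat turned negative with DESeq2 (-0.011) and length-scaled counts (-0.29). The soma change of Tbc1d9b in N2A cells turned negative with at least 10 counts (-0.032), length-scaled counts (-0.048) and upper-quartile scaling (-0.082). Between the transgenes, the LR change of Fyco1 turned negative with length-scaled counts (-0.070), and the Q331K LR of Hhat with no filter (-0.00088) and upper-quartile scaling (-0.0067). In the most abundant transcript Tbc1d9b had 0 of the 5mers.

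Relative to the median gene on the log2(TPM + 0.5) scale, chosen after seeing the data, N2A values were 0.17 and 0.49 (LR of Tbc1d9b, wild-type and knockout), 0.0048 and 1.06 (Fyco1), -0.78 (Hhat, knockout), -0.21 (LR change of Hhat), -0.12 (soma, Tbc1d9b) and 0.22 (neurites, Hhat), and the Q331K LRs were 2.57 and 3.64 (Tbc1d9b, Fyco1).

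Over left-out libraries the N2A LR change of Hhat ran from -0.059 to 0.066, its LR from -0.47 to -0.35 in wild-type and -0.47 to -0.36 in knockout cells, its soma change from 0.42 to 0.51 and its neurite change from 0.38 to 0.49. Soma changes in N2A cells ran from -0.022 to 0.14 for Tbc1d9b and -0.35 to -0.25 for Fyco1, and neurite changes from 0.031 to 0.38 and 0.70 to 1.15. The N2A LR change of Tbc1d9b ran from 0.0015 to 0.35. Between the transgenes, ranges were -0.35 to -0.018 and -0.69 to -0.24 (LR change of Tbc1d9b and Hhat), -0.014 to 0.32 (LR change of Fyco1), -0.079 to 0.17 (Q331K LR of Hhat), -0.067 to 0.063 and -0.11 to 0.14 (soma, Tbc1d9b and Fyco1) and -0.33 to 0.00191 (neurites, Tbc1d9b). Transcript LR changes in N2A cells ran from -0.27 to 0.089 (Tbc1d9b-201), -0.076 to 0.34 (Tbc1d9b-202), -2.46 to 0.86 (Fyco1-201) and 0.93 to 1.43 (Fyco1-202), and between the transgenes from -4.85 to 0.79 (Fyco1-201), -0.24 to 0.44 (Hhat-202) and -0.048 to 0.37 (Tbc1d9b-202).

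Replicate numbers did not meet the rule for pairing the samples, which asked for an r over 0.1 in every pair. Same-numbered libraries passed it in 12, 7 and 8 of 18 pairs in the CAD, N2A and transgene experiments, with median r of 0.137, 0.0888 and 0.0852 (differently numbered -0.0713, -0.0258 and -0.0185), and 10, 11 and 9 of 12 libraries correlated best with their own number, a hint from the data. With a replicate block 42 genes (37 higher, 5 lower) were called in N2A cells, and besides the wild-type LR of Fyco1 (0.53, adjusted p = 0.00980, edgeR) no call of the 3 genes changed. Depth limits Hhat most.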
